A study of Arabidopsis thaliana with 20 samples.

Results

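The genes described here encode proteins of the cytosolic 80S ribosome of Arabidopsis thaliana. They are 58 gene identifiers of 27 protein families, taken as a fixed list from the 37336 genes in the count table. The list holds 32 genes of large subunit proteins, 22 genes of small subunit proteins and 4 genes of the acidic P stalk (3 for P0 and 1 for P1). All 58 were in the table, and 57 passed the expression filter of a mean of at least 1 RPKM, as did 16288 genes in all. Another 154 cytosolic ribosomal protein genes lie outside the list and are used for comparison.

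Cytosolic ribosomes translate nuclear messenger RNAs, and in plants nearly every one of their proteins is encoded by a small family of paralogs whose products are close to identical. Expression of these genes follows growth and the activity of the TOR kinase, and many of their promoters carry site II and telo-box elements, which are shared with other genes of growing tissue. Mutants of single paralogs often have pointed or narrow leaves or altered leaf polarity, as the gene names POINTED FIRST LEAVES (PFL) and PIGGYBACK (PGY) recall.

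The study asked how leaves respond to single walled carbon nanotubes (SWNTs), rods of carbon used as sensors and as carriers of nucleic acids, and how the polymer coat changes that response. The plants were wild-type Columbia-0, grown for 6 weeks, and their young leaves were filled with about 40 µL of liquid from a needleless syringe, and leaf RNA was collected 2 days later. The 4 groups were compared with 5 libraries each, every library a biological replicate made from 4 leaves of different plants. The non-infiltrated leaves received nothing and the water leaves received water alone. The SWNTs leaves received 50 ng/µL of pristine nanotubes with adsorbed single-stranded RNA, and the PEI-SWNTs leaves received 50 ng/µL of nanotubes coated with the cationic polymer polyethyleneimine (PEI) and loaded with plasmid DNA. Per the study, the PEI-SWNTs were made from carboxylated nanotubes and not from pristine ones. The nanotube groups therefore differ in coat, cargo and the nanotube itself, and the effects of these cannot be told apart. All plants were of the same genotype.

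Counting reads separately for paralogs depends on how far their sequences differ, so the 3 genes of the L10 family, whose levels moved apart most, are shown first. Their first 90 coding bases differ at 14 positions, which are in capitals. Each stretch joins the end of one coding exon to the start of the next (TAIR10, plus strand; SAC52 at chr1:4888270-4888279 and chr1:4888549-4888628, RPL10B at chr1:9321709-9321718 and chr1:9322072-9322151, SAG24 at chr1:24839208-24839217 and chr1:24839618-24839697).
SAC52: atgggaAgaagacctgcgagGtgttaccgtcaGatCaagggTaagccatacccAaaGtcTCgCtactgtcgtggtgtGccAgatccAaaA
RPL10B: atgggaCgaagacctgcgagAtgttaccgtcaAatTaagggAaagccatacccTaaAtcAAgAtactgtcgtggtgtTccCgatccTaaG
SAG24: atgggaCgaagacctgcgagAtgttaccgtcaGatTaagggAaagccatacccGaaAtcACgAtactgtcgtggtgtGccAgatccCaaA
Across their whole coding sequences the longest run of identical bases was 98 for SAC52 with SAG24 and 53 for RPL10B with SAG24, both shorter than a 150-base read. Over the 41 pairs of closely related members, at 88.8% to 100% protein identity, this run had a median of 36 bases and was as short as 17. A single pair was above 150 bases, the neighbouring L9 genes AT1G33120 and PGY2, which shared 458 of 585 coding bases in 1 run. Of the 100-base exon windows of AT1G33120 53.3% were found elsewhere in the genome, and of those of PGY2 58.4%. The counts of these 2 genes are therefore uncertain, as are those of XW6 with 12.4%.

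In the 250 bases before the annotated gene start, 44 of the 58 members (75.9%) held a site II element (TGGGCC or TGGGCT on either strand), against 19.2% of 27408 promoters of the same length. The telo-box AAACCCTA, on either strand, was in 10 members (17.2%) and in 4.48% of all promoters. The 154 other cytosolic ribosomal protein genes held site II in 65.6% and the telo-box in 20.8% of their promoters. These promoters are shown for the genes whose paralog ratios changed most, without bases that belong to an annotated exon, with site II in capitals. They lie directly before the gene start (TAIR10, plus strand; SAC52 chr1:4887934-4888113, RPL10B chr1:9321513-9321649, SAG24 chr1:24838840-24839089, AT3G11250 chr3:3521189-3521328).
SAC52: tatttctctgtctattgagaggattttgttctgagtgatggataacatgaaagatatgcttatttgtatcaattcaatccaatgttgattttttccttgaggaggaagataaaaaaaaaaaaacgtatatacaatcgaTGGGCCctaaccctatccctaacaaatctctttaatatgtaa
RPL10B: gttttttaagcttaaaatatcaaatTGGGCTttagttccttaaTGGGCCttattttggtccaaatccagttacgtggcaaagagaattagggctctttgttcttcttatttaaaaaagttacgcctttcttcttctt
SAG24: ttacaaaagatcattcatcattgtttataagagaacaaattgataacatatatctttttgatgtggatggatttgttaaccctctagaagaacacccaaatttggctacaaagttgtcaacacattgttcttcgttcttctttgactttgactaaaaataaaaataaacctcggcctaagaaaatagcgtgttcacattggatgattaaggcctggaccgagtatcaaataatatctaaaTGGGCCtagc
AT3G11250: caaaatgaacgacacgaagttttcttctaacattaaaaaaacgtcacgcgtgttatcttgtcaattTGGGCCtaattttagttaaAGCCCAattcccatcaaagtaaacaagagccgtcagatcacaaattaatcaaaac
SAC52 and SAG24 had 1 site II each, and RPL10B and AT3G11250 had 2 each. The P0 gene AT3G09200 had 1, in a window that is annotated as exon along its whole length and is not shown. The motif is a match of letters only. Genes that rose and genes that fell were found both with and without site II. Among those without it, the S14 gene AT3G11510 was higher with every treatment and XW6 was lower with SWNTs than with water. The part of site II in the changes was not tested.

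The counts assigned to genes summed to between 13387714 and 29737496 per library, and whether 1 count is a read or a read pair is not given in the sources used here. The 58 members together took 0.644% to 0.987% of them. Mesophyll markers summed to between 41660 and 69080 CPM (counts scaled to the size of the library) in each library, while 11 markers of dividing cells summed to no more than 3.44 CPM and none of them passed the filter. In bulk leaves, a change in the number of cells of one type and a change in RNA per cell cannot be told apart.

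Per length, the members were among the most abundant transcripts of the leaf. Their median level was 124 RPKM, against 10.4 RPKM for all genes tested. AT5G20290, the gene of small subunit protein S8, was highest at a mean of 379 RPKM over the 20 libraries, followed by the L14 gene AT4G27090 at 361 RPKM. RPL10B was the lowest of those tested, at 4.39 RPKM and 48 to 169 counts per library. The P0 gene AT2G40010 was lower still, at 0.409 RPKM and 3 to 29 counts, and did not pass the filter. It overlaps a gene on the other strand over 50.2% of its exons, and the strand setting of the counting is not given in the sources used here.

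Within families the share of each paralog, per length, was stable among replicates. In non-infiltrated leaves SAC52 made 66.0% ± 1.71 (SD, n = 5) of L10 transcripts, SAG24 32.4% ± 1.60 and RPL10B 1.58% ± 0.254. The S9 family was as uneven, with 93.9% ± 0.793 from AT5G15200, whereas the 3 S3 genes divided theirs into 28.9%, 35.4% and 35.7%.

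Infiltration of any kind raised a subset of the members by a modest amount. Against the same 5 non-infiltrated libraries, 21 of 57 members were higher and 0 lower in water leaves, 20 were higher and 1 lower in SWNTs leaves, and 23 were higher and 0 lower in PEI-SWNTs leaves (edgeR quasi-likelihood test, adjusted p under 0.05). The background over all 16288 genes was 32.8% called for water, 42% for SWNTs and 61.6% for PEI-SWNTs, so the members' 36.8%, 36.8% and 40.4% were close to it for water and below it for both nanotubes. Calls in the higher direction were another matter, since they were 36.8%, 35.1% and 40.4% of members and 16.4%, 21.6% and 30.4% of all genes. For lower calls the background with PEI-SWNTs was 31.2%. No member changed by 2-fold in any comparison, whereas 4.51%, 6.91% and 14.8% of all genes did. In the joint test of the 3 treatments 28 of 57 members passed (49.1%), against 72.3% of all genes.

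The median log2 fold change of the members was 0.18 for water, 0.17 for SWNTs and 0.15 for PEI-SWNTs, while that of all genes lay between -0.02 and 0.00. Summed over members, levels ran from 6481 to 9240 CPM in non-infiltrated leaves, with the lowest value in replicate 3, and from 8419 to 10140 CPM in the 15 infiltrated libraries. Groups did not overlap for 6 members with water (10.5%, background 17.8%), 14 with SWNTs (24.6%, background 27%) and 15 with PEI-SWNTs (26.3%, background 41.9%). Without non-infiltrated replicate 3 the 3 medians were 0.09, 0.08 and 0.08, and the calls became 12 higher and 1 lower, 16 higher and 2 lower, and 20 higher and 3 lower. The water count also fell to 11 without non-infiltrated replicate 2, to 13 without water replicate 4 and to 10 without water replicate 5. With an offset for GC content and transcript length the PEI-SWNTs calls split into 16 higher and 4 lower. Counts under altered settings, here and below, stand without the share of all genes called in the same setting. Whether higher calls exceeded the background in those settings is therefore not shown. By subunit, 13 of 32 large subunit, 8 of 22 small subunit and 2 of 3 P stalk genes were higher with PEI-SWNTs. Their shares were 40.6%, 36.4% and 66.7%, against 30.4% of all genes. With water the counts were 12, 7 and 2 (16.4% of all genes), and with SWNTs 12, 6 and 2 (21.6% of all genes).

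**Figure D1:**
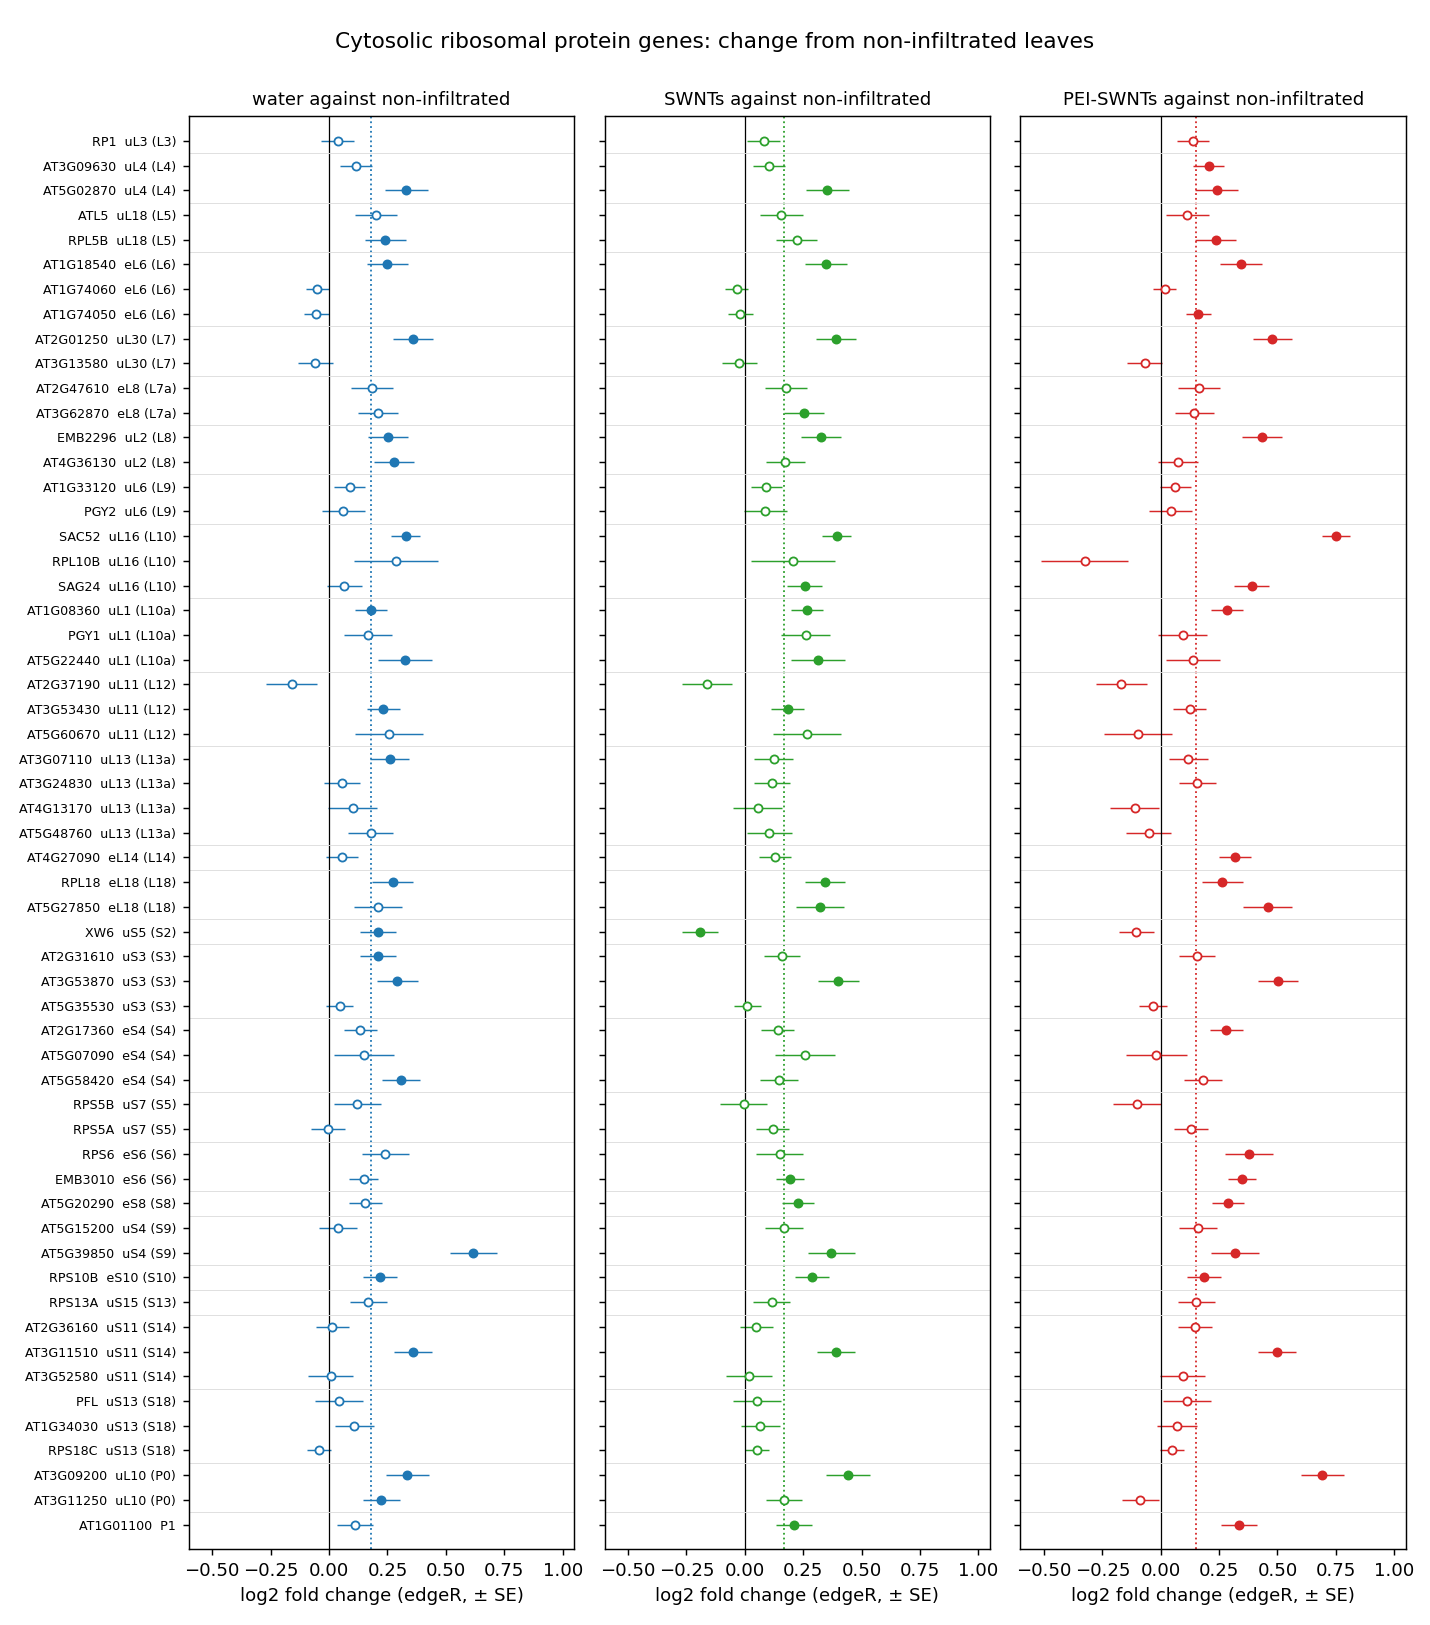
Log2 fold change of each tested member (rows, grouped by protein family) from non-infiltrated leaves in water, SWNTs and PEI-SWNTs leaves, with its SE from edgeR and 5 libraries per group. Filled points passed an adjusted p of 0.05, the dotted line is the members' median, and SAC52 and the P0 gene AT3G09200 stand farthest to the right with PEI-SWNTs, at 0.75 and 0.69.

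Among large subunit genes the L10 family moved most. SAC52 (RPL10A; chr1:4888114-4889704, plus strand) encodes uL16, a protein placed late in assembly of the large subunit, and is known in Arabidopsis as a target of the antiviral receptor kinase NIK1. Its levels in the non-infiltrated libraries were 226, 212, 185, 233 and 241 CPM. Water leaves had 281, 257, 273, 276 and 290 CPM, and SWNTs leaves had 305, 277, 296, 294 and 268 CPM. With PEI-SWNTs they were 381, 365, 373, 354 and 372 CPM. Every infiltrated library lay above every non-infiltrated one, and every PEI-SWNTs library lay above all the others. The log2 fold change from non-infiltrated leaves was 0.33 ± 0.061 (SE) for water (edgeR adjusted p = 0.000586), 0.39 ± 0.061 for SWNTs (edgeR adjusted p = 5.3e-05) and 0.75 ± 0.061 for PEI-SWNTs (edgeR adjusted p = 4.16e-09).

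RPL10B (chr1:9321650-9323028, plus strand), whose protein is 97.3% identical to that of SAC52, went the other way with PEI-SWNTs. It stood at 4.65, 3.98, 2.69, 5.58 and 5.16 CPM in non-infiltrated leaves and at 4.69, 5.31, 4.94, 5.83 and 6.08 CPM in water leaves. In SWNTs leaves it was 5.74, 6.21, 5.54, 4.78 and 3.24 CPM, and in PEI-SWNTs leaves 3.21, 3.67, 3.60, 2.94 and 4.14 CPM. The PEI-SWNTs values were all below the water values and overlapped those of the other groups. Against water RPL10B fell by 0.61 ± 0.19 (SE) on the log2 scale (edgeR adjusted p = 0.00965), against SWNTs by 0.53 ± 0.19 (edgeR adjusted p = 0.0289, up to 0.0695 when SWNTs replicate 2 was left out), and against non-infiltrated leaves its log2 fold change was -0.33 ± 0.19 (edgeR adjusted p = 0.135).

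SAG24, the RPL10C gene that was catalogued as associated with senescence, moved with SAC52 to a lesser degree. Its mean rose from 98.1 ± 13.8 CPM (SD, n = 5) in non-infiltrated leaves to 129 ± 4.48 with PEI-SWNTs, where the groups did not overlap (log2 fold change 0.39 ± 0.075, edgeR adjusted p = 0.000164). In water leaves it was at 103 ± 5.10 CPM and did not pass the test (edgeR adjusted p = 0.53). The L14 gene AT4G27090 had the same order, with log2 fold changes of 0.05 ± 0.068 for water and 0.32 ± 0.068 for PEI-SWNTs, and only the latter passed (edgeR adjusted p = 0.000455).

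Other large subunit genes rose with all treatments. AT2G01250 (L7) was at 104 to 160 CPM in non-infiltrated leaves, 158 to 196 in water, 175 to 185 in SWNTs and 176 to 200 in PEI-SWNTs leaves. Its log2 fold changes were 0.36, 0.39 and 0.48, each past the threshold. EMB2296 (L8), whose loss arrests the embryo, rose by 0.25, 0.33 and 0.43 on the log2 scale, and AT5G02870 (L4) by 0.33, 0.35 and 0.24. AT5G02870 lost its PEI-SWNTs call in 9 of the runs with 1 library left out (edgeR adjusted p up to 0.114). Its log2 fold change was lowest, at 0.16, without non-infiltrated replicate 3. AT2G37190 (L12) was the member with the lowest fold change from non-infiltrated leaves with water, at -0.16 ± 0.11, and did not pass in any comparison. EMB2296 and AT2G37190, and RPS6 below, were chosen after their values were seen.

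Changes nearer to the threshold were found in a further 5 large subunit genes. AT1G08360 (L10a) rose by 0.18, 0.27 and 0.28 with water, SWNTs and PEI-SWNTs. RPL5B, whose protein binds the 5S ribosomal RNA, rose by 0.24 with water and 0.23 with PEI-SWNTs, and AT3G53430 (L12) by 0.23 with water and 0.18 with SWNTs. AT3G09630 (L4) rose by 0.20 and AT1G74050 (L6) by 0.16 with PEI-SWNTs. Of these, the water call of AT1G08360, the SWNTs call of AT3G53430 and the PEI-SWNTs calls of RPL5B, AT3G09630 and AT1G74050 were lost with 1 library left out, at edgeR adjusted p of up to 0.127, 0.115, 0.0874, 0.0627 and 0.0753.

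**Figure D2:**
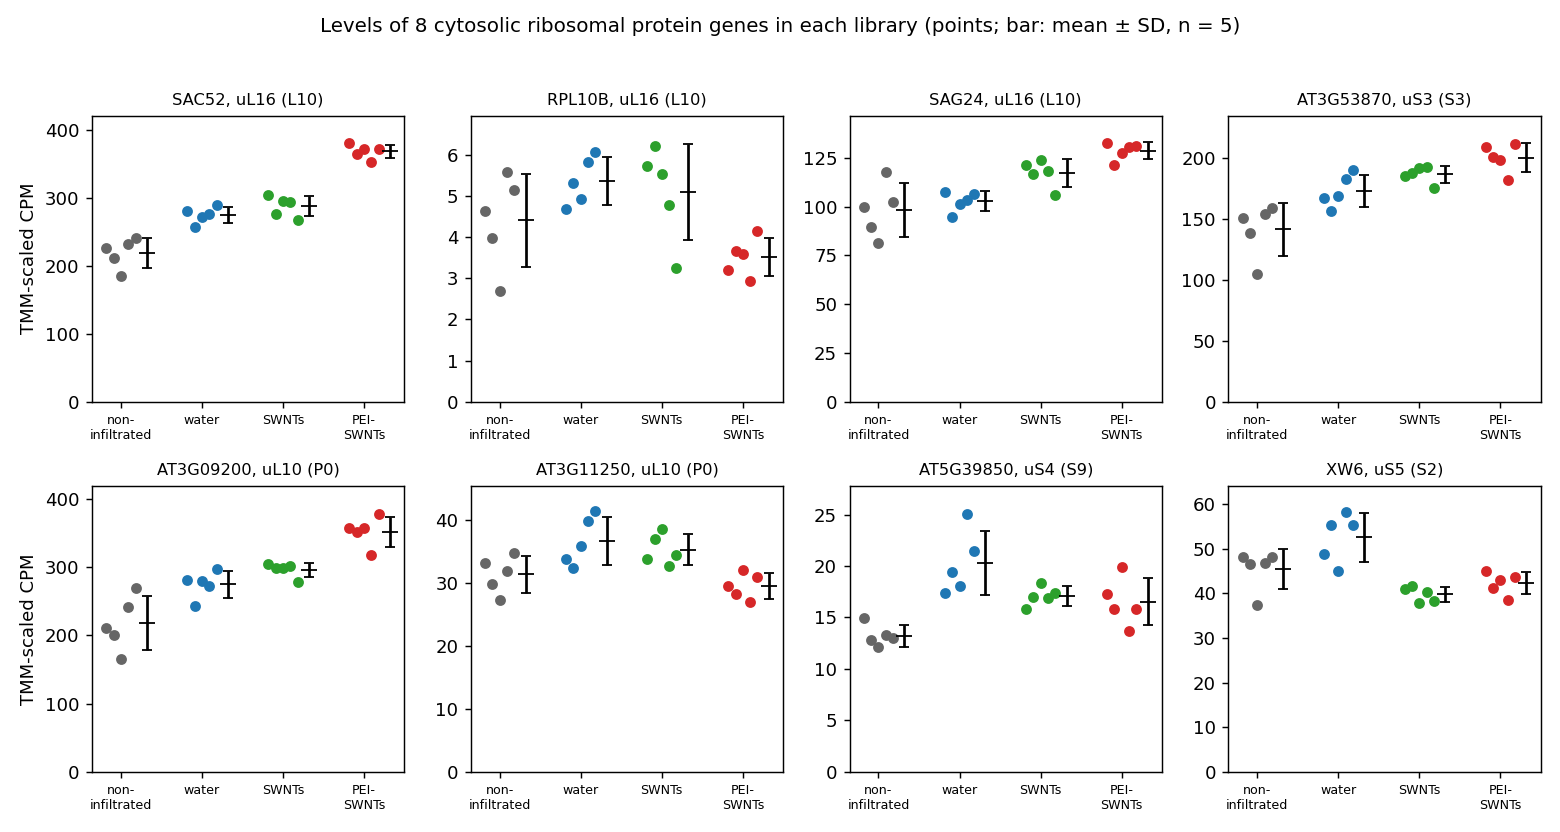
TMM-scaled CPM of 8 members in each library (points) with the mean and SD of 5 libraries (bars), by group, on axes that start at 0. SAC52 and AT3G09200 are highest in PEI-SWNTs leaves, their paralogs RPL10B and AT3G11250 are not, and AT5G39850 and XW6 peak in water leaves at means of 20.3 and 52.6 CPM.

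Among small subunit genes, AT5G39850 had the highest fold change with water, and AT3G53870 had the highest with SWNTs and with PEI-SWNTs. AT5G39850 (S9, chr5:15949910-15951475, plus strand), the minor gene of a protein at the messenger RNA entry site, had the largest water response of all members. It was at 14.98, 12.8, 12.1, 13.3 and 12.96 CPM in non-infiltrated leaves and at 17.3, 19.4, 18.1, 25.1 and 21.5 CPM in water leaves, and the groups did not overlap. The log2 fold change was 0.62 ± 0.10 for water (edgeR adjusted p = 0.000181), 0.37 ± 0.10 for SWNTs and 0.32 ± 0.10 for PEI-SWNTs, all past the threshold. Its level with PEI-SWNTs was below that with water (log2 fold change -0.30, edgeR adjusted p = 0.0174), a call that was lost without water replicate 4 (edgeR adjusted p = 0.0675).

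The S3 gene AT3G53870 and the S14 gene AT3G11510 rose with every treatment and most with PEI-SWNTs. AT3G53870, which encodes a protein at the entry of the messenger RNA channel, had 150, 138, 105, 154 and 158 CPM in non-infiltrated leaves. It had 208, 201, 198, 181 and 211 CPM with PEI-SWNTs, above all non-infiltrated libraries. Its log2 fold changes were 0.29, 0.40 and 0.50 for water, SWNTs and PEI-SWNTs, and those of AT3G11510 were 0.36, 0.39 and 0.50. RPS6 and EMB3010 encode S6, the substrate of the S6 kinase below TOR, and rose by 0.38 and 0.35 on the log2 scale with PEI-SWNTs (edgeR adjusted p = 0.00325 and 5.76e-05). With water neither S6 gene passed (edgeR adjusted p = 0.0745 and 0.066). EMB3010 also rose with SWNTs, by 0.19 (edgeR adjusted p = 0.015). Its value with PEI-SWNTs was above that with SWNTs by 0.16 (edgeR adjusted p = 0.0457, up to 0.158 with 1 library left out). AT5G20290 (S8) rose by 0.23 with SWNTs and 0.29 with PEI-SWNTs, and RPS10B by 0.22, 0.29 and 0.19 with the 3 treatments. RPS10B lost its water and PEI-SWNTs calls with 1 library left out (edgeR adjusted p up to 0.067 and 0.114), and without non-infiltrated replicate 3 its PEI-SWNTs value was 0.12. AT2G31610, the S3 gene whose share moved least, rose by 0.21 with water (edgeR adjusted p = 0.0443, up to 0.105 with 1 library left out).

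XW6 (S2, chr1:21688935-21690290, plus strand) was the exception among the members, higher with water and lower with SWNTs. It was at 48.2, 46.5, 37.5, 47.0 and 48.3 CPM in non-infiltrated leaves and at 48.9, 55.4, 44.9, 58.4 and 55.3 CPM in water leaves. In SWNTs leaves it was at 41.1, 41.6, 37.9, 40.3 and 38.3 CPM, below every water library. SWNTs against water gave a log2 fold change of -0.40 ± 0.076 (edgeR adjusted p = 0.00162), the single member called in that comparison. The calls against non-infiltrated leaves, 0.21 for water and -0.19 for SWNTs, had edgeR adjusted p of 0.0386 and 0.0488 and reached 0.108 and 0.105 when single libraries were left out. As given above, 12.4% of its exon windows are also found elsewhere.

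The P stalk is the arm of the large subunit that recruits elongation factors, and its base is P0. AT3G09200 (chr3:2823088-2825241, minus strand), the major P0 gene, had 211, 200, 165, 242 and 270 CPM in non-infiltrated leaves and 282, 243, 280, 272 and 297 CPM in water leaves. It had 304, 298, 298, 301 and 278 CPM in SWNTs leaves and 356, 351, 357, 317 and 377 CPM in PEI-SWNTs leaves. The PEI-SWNTs libraries lay above all other libraries, and the log2 fold change from non-infiltrated leaves was 0.34 ± 0.094 for water, 0.44 ± 0.094 for SWNTs and 0.69 ± 0.094 for PEI-SWNTs (edgeR adjusted p = 0.0102, 0.000943 and 3.27e-06).

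AT3G11250 (chr3:3521329-3523071, plus strand), a P0 gene whose protein is 97.5% identical, did not follow. It was at 33.2, 29.8, 27.3, 31.9 and 34.8 CPM in non-infiltrated leaves, at 33.9, 32.4, 36.0, 39.9 and 41.4 CPM in water leaves, and at 33.9, 37.1, 38.6, 32.7 and 34.4 CPM in SWNTs leaves. With PEI-SWNTs it had 29.6, 28.3, 32.2, 27.0 and 31.0 CPM, below all water and all SWNTs libraries. It rose with water (log2 fold change 0.22, edgeR adjusted p = 0.0323; up to 0.101 with 1 library left out) and was lower with PEI-SWNTs than with water by 0.31 on the log2 scale (edgeR adjusted p = 0.00258). The P1 gene AT1G01100 rose by 0.34 ± 0.078 with PEI-SWNTs (edgeR adjusted p = 0.000928). It rose by 0.21 with SWNTs (edgeR adjusted p = 0.0363, up to 0.0918 with 1 library left out).

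The infiltrated groups were also compared with each other. SWNTs against water gave 0 higher and 1 lower of 57 members, where 13.7% of all genes were called (7.52% higher and 6.14% lower). For PEI-SWNTs against water 8 were higher and 6 lower, where 51.9% of all genes were called (27.7% higher and 24.3% lower), and for PEI-SWNTs against SWNTs 5 were higher and 2 lower, where 41.3% of all genes were called (22.3% higher and 19% lower). None of these was as large as 2-fold, which 1.52%, 9.61% and 6.39% of all genes reached. Groups did not overlap for 3 members between SWNTs and water (5.26%, background 11.9%), 11 between PEI-SWNTs and water (19.3%, background 35%) and 8 between PEI-SWNTs and SWNTs (14%, background 29%). The members' shares of 1.75%, 24.6% and 12.3% were below all 3 backgrounds, and their median log2 fold changes were 0.02, -0.01 and 0.00. SAC52 led both PEI-SWNTs comparisons, by 0.42 ± 0.061 against water (edgeR adjusted p = 1.17e-05) and 0.36 ± 0.061 against SWNTs (edgeR adjusted p = 0.000122). AT3G09200 came next with 0.36 and 0.25, of which the value against SWNTs (edgeR adjusted p = 0.0387) rose to a p of 0.101 with 1 library left out. RPL10B, AT5G60670, XW6, AT3G11250, AT5G39850 and AT4G36130 were the 6 members lower with PEI-SWNTs than with water, at -0.61, -0.35, -0.31, -0.31, -0.30 and -0.20. The AT5G60670 value lost its call with 1 library left out (edgeR adjusted p up to 0.129), and AT4G36130, named after its value was seen, overlaps a gene on the other strand over 23.9% of its exons. With the offset for GC content and length these splits became 6 higher and 11 lower against water and 3 higher and 3 lower against SWNTs. Without non-infiltrated replicate 3, which only shares the estimate of spread, the counts were 13 higher and 9 lower, and 7 higher and 4 lower. The 7 calls against SWNTs became 4 without PEI-SWNTs replicate 1 or 2 or any 1 of the SWNTs libraries, and 3 without PEI-SWNTs replicate 3.

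Paralogs within a library share its scaling, so their ratio is largely free of the choice of scaling factor. The offset for GC content and length differs between genes and was not applied to the ratios. The log2 ratio of CPM was tested with limma over 1851 pairs of proteins with at least 80% identity, 41 of which were pairs of members. Against non-infiltrated leaves the ratio changed in 15 member pairs with water (36.6%, background 32.6%), 14 with SWNTs (34.1%, background 40.5%) and 23 with PEI-SWNTs (56.1%, background 59.8%). Changes of at least 1.5-fold were rarer than elsewhere, with 0, 0 and 3 member pairs against 11%, 14.9% and 32.6% of all pairs. The 3 pairs were SAC52 with RPL10B, RPL10B with SAG24, and the P0 pair AT3G09200 with AT3G11250. They are not independent, since both L10 pairs hold RPL10B, which had only 48 to 88 counts per PEI-SWNTs library. Between infiltrated groups the ratio changed in 7 member pairs for SWNTs against water (17.1%, background 13.4%), 20 for PEI-SWNTs against water (48.8%, background 51.2%) and 15 for PEI-SWNTs against SWNTs (36.6%, background 42%). The SWNTs count against water was 4 without water replicate 2 or without SWNTs replicate 2, 3 or 5. Changes of at least 1.5-fold were found in 0, 3 and 2 of them, against 4.16%, 25.2% and 18% of all pairs. The median size of the ratio change with PEI-SWNTs was 0.19 in member pairs and 0.37 in all close pairs, on the log2 scale.

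The largest shift was between SAC52 and RPL10B. Their log2 ratio was 5.58, 5.70, 6.05, 5.36 and 5.52 in non-infiltrated leaves and 6.85, 6.60, 6.66, 6.86 and 6.46 with PEI-SWNTs, with no overlap. The change was 1.04 ± 0.16 (SE, limma adjusted p = 9.1e-06) against non-infiltrated leaves, 1.02 ± 0.16 against water (limma adjusted p = 1.65e-05) and 0.86 ± 0.16 against SWNTs (limma adjusted p = 0.000207). The share of RPL10B in L10 transcripts, per length, went from 1.58% ± 0.254 to 0.825% ± 0.104 (SD, n = 5). With water the ratio did not pass the test (change 0.02 ± 0.16, limma adjusted p = 0.936), and SWNTs replicate 5, at 6.33, was close to the PEI-SWNTs range.

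The P0 genes moved apart in the same way. The log2 ratio of AT3G09200 to AT3G11250 was 2.66, 2.74, 2.59, 2.92 and 2.95 in non-infiltrated leaves and 3.59, 3.63, 3.47, 3.55 and 3.60 with PEI-SWNTs. Water libraries ran from 2.77 to 3.05 and SWNTs libraries from 2.95 to 3.20, all below those with PEI-SWNTs. The change was 0.79 ± 0.076 (limma adjusted p = 3.18e-08) against non-infiltrated leaves, 0.66 against water and 0.50 against SWNTs, all past the threshold. The minor gene's share of P0 transcripts fell from 13.7% ± 1.28 to 8.39% ± 0.336 (SD, n = 5).

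**Figure D3:**
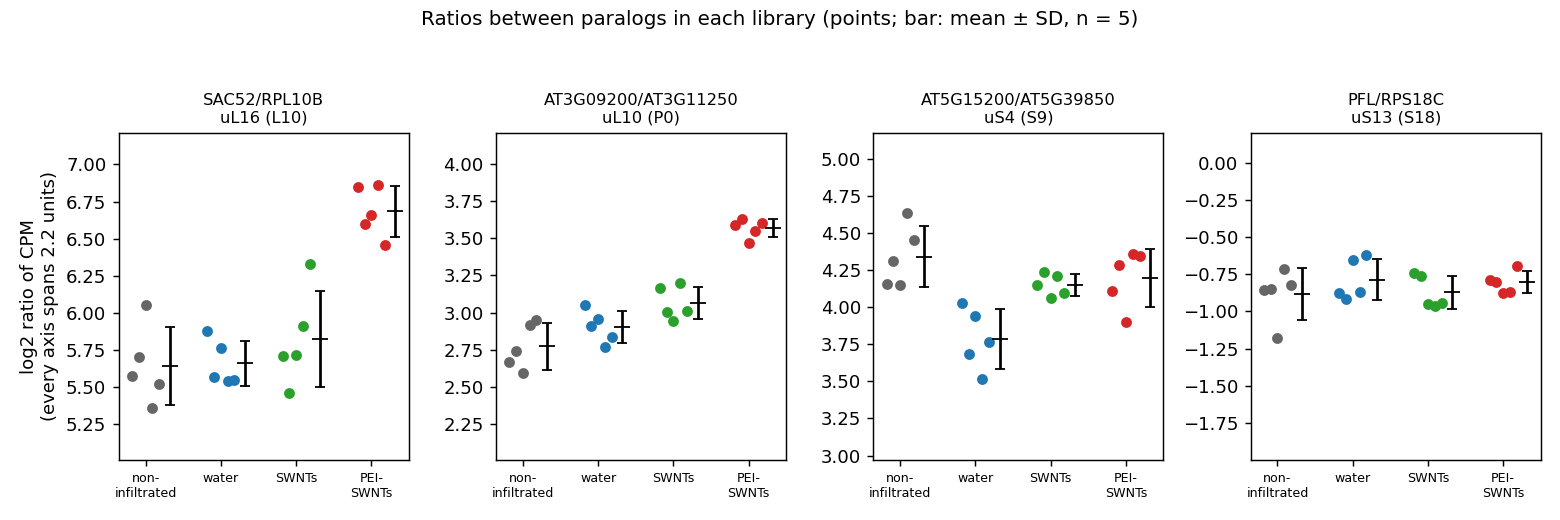
Log2 ratio of CPM between paralogs in each library (points) with the mean and SD of 5 libraries (bars), for the L10, P0, S9 and S18 families, on axes of equal span. SAC52/RPL10B and AT3G09200/AT3G11250 are highest in PEI-SWNTs leaves, AT5G15200/AT5G39850 is lowest in water leaves, and PFL/RPS18C overlaps in all groups.

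Some ratios shifted already with water alone. AT5G15200 over AT5G39850 (S9) fell by 0.55 ± 0.11 on the log2 scale with water (limma adjusted p = 0.000992), from 4.15, 4.31, 4.15, 4.63 and 4.45 to 4.03, 3.68, 3.94, 3.51 and 3.76. With SWNTs and PEI-SWNTs it did not pass against non-infiltrated leaves (limma adjusted p = 0.192 and 0.287), and in both it was above the water value (limma adjusted p = 0.0366 and 0.00428). AT2G01250 over AT3G13580 (L7) rose by 0.42 with water, 0.42 with SWNTs and 0.55 with PEI-SWNTs. AT3G53870 over AT5G35530 (S3) rose by 0.25, 0.40 and 0.54, all past the threshold, and the share of AT3G53870 in S3 transcripts, per length, went from 35.4% ± 1.42 to 42.9% ± 0.720 (SD, n = 5).

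Other families kept their proportions within the spread of the replicates. The 3 S18 genes PFL, AT1G34030 and RPS18C encode the same protein of 152 residues, and none of their 3 ratios passed in any comparison with non-infiltrated leaves. The largest of these changes was 0.15 ± 0.079 (AT1G34030 over RPS18C with water, limma adjusted p = 0.145). PFL made 27.6% ± 2.14 of S18 transcripts in non-infiltrated leaves and 28.6% ± 1.18 with PEI-SWNTs. AT1G33120 and PGY2 (L9) also encode 1 protein, and their ratio changed by between -0.03 and 0.03 in every comparison, but reads of these genes are hard to assign.

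Genes around the ribosome did not all follow the members. The 142 tested genes of the other cytosolic ribosomal proteins gave 62 higher and 0 lower with water, 63 and 4 with SWNTs, and 68 and 11 with PEI-SWNTs, with medians of 0.21, 0.20 and 0.21. Their shares of higher calls were 43.7%, 44.4% and 47.9%, where all genes had 16.4%, 21.6% and 30.4%. Among them the S10 gene AT5G52650 rose by 0.73 and RPL34 by 0.68 with PEI-SWNTs, while AT4G30800 fell by 0.94 and AT5G15520 by 0.92. Of 21 cytosolic translation factors 13 were higher and 2 lower with PEI-SWNTs (61.9% higher and 9.52% lower, against 30.4% and 31.2% of all genes), among them ELF5A-3 at 0.72 and LOS1, the elongation factor that moves the ribosome along, at 0.48.

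Of 30 ribosome assembly factors 1 was higher and 14 lower with PEI-SWNTs (50% called, below the 61.6% of all genes, and 46.7% lower, against 31.2% of all genes; median log2 fold change -0.21), with EDA25 at -0.68 and SWA1 at -0.55, while with water 3 were higher and 2 lower (median 0.13). Of 29 nuclear genes of plastid ribosomal proteins 1 was higher and 16 lower with PEI-SWNTs (58.6% called and 55.2% lower; median -0.26), with AT5G65220 at -0.80 and RPS9 at -0.71. Among 9 genes of the TOR pathway and its regulators, 3 were higher and 2 lower with PEI-SWNTs (55.6% called, below the 61.6% of all genes; median -0.03). S6K2 rose by 1.41 ± 0.23 and AT5G13240, annotated as a transcription regulator, fell by 1.16 ± 0.11. The other called genes changed less, with LST8-1 at 0.30, TOR at 0.18 and NAC082 at -0.15.

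**Figure D4:**
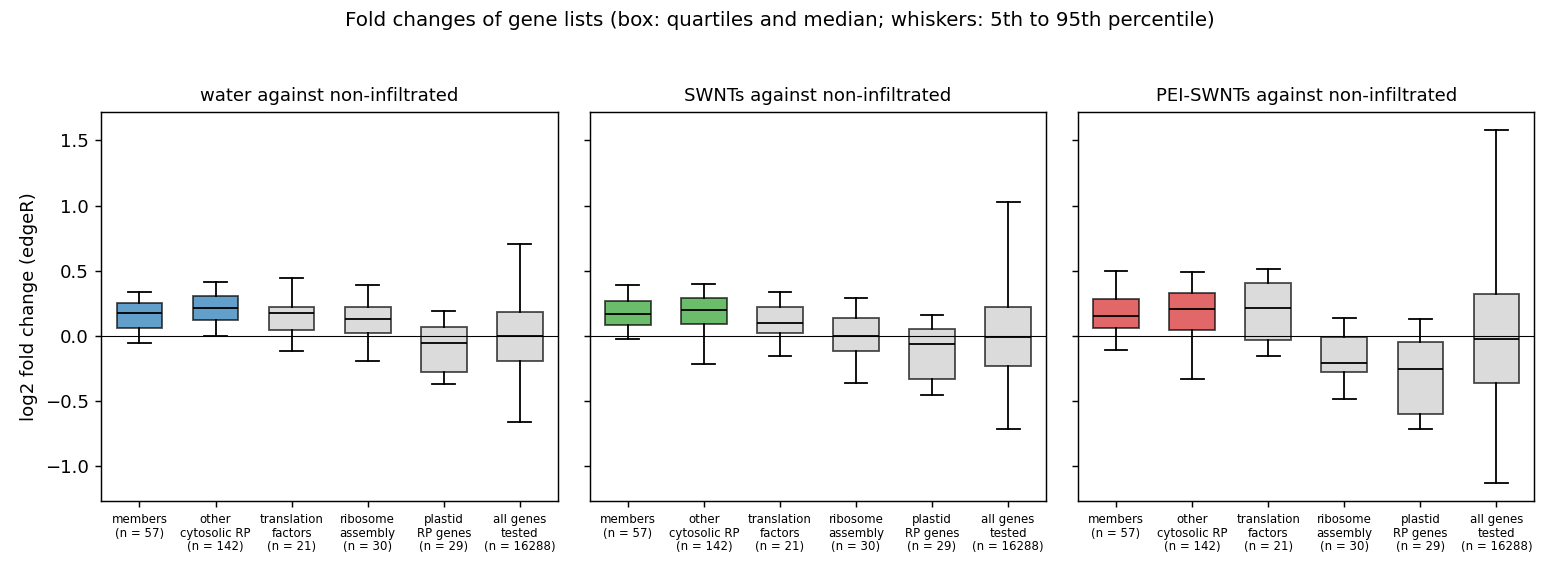
Log2 fold change from non-infiltrated leaves over the genes of each list, for water, SWNTs and PEI-SWNTs, as boxes of the quartiles and median with whiskers from the 5th to the 95th percentile. Members and the other cytosolic ribosomal protein (RP) genes have medians of 0.15 to 0.21 in all 3 panels, while assembly factors and plastid RP genes have medians of -0.21 and -0.26 with PEI-SWNTs.

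Markers of leaf cell types moved in the same libraries. With PEI-SWNTs 4 of 4 tested epidermis markers, 4 of 5 guard cell markers and 3 of 6 vascular markers were lower than in non-infiltrated leaves, and 1 of 5 mesophyll markers was, where 31.2% of all genes were lower. Summed guard cell markers ranged from 79.6 to 107 CPM in non-infiltrated leaves, 64.2 to 88.9 in water, 71.7 to 82.9 in SWNTs and 52.9 to 77.3 in PEI-SWNTs leaves, and summed vascular markers from 602 to 710, 482 to 532, 507 to 527 and 462 to 527 CPM. Summed epidermis markers ranged from 782 to 925, 868 to 919, 843 to 999 and 558 to 641 CPM. No marker was at 0 in all libraries. Their part in the members' changes was not tested.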

How the data were processed

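RNA from 20 leaf samples was sequenced by the authors after poly-A selection, and the deposited values are raw counts per gene. Per the study's methods, reads were trimmed with Trimmomatic, mapped with HISAT2 to TAIR10 and counted with featureCounts 2.0.1, and replicates were not pooled. Whether counting used strand, and how multiply mapped reads were handled, is not given in the sources used here. A second deposited table, made with edgeR 3.30.3, gave only the authors' gene lengths in base pairs for 139 genes. Its other columns hold the authors' fold changes and p-values and were not used.

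Counts were scaled by TMM (factors 0.948 to 1.05) to CPM, and RPKM was computed from CPM and gene length. Genes with a mean of at least 1 RPKM were fitted by group over all 20 libraries with the quasi-likelihood test of edgeR 4.0.16 in R 4.3.3, giving 6 comparisons with Benjamini-Hochberg adjustment over 16288 genes. Calls are adjusted p under 0.05. Paralog ratios of log2 CPM (prior count 2) were tested with limma 3.58.1 over 1851 pairs. The scripts were tested on simulated data. Sequences and positions came from the TAIR10.1 RefSeq assembly, whose nuclear chromosomes are those of TAIR10.

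The members and lists were chosen with earlier results of these data known. Named genes are the 5 largest and 5 smallest log2 fold changes among called members in each comparison, the most and least expressed member, members of paralog pairs whose called ratio changed by at least 1.5-fold, members that fail the filter, and the 3 largest and 3 smallest called changes with PEI-SWNTs in other lists. Exceptions are marked, other than AT5G15200, AT3G13580, AT5G35530, PFL, AT1G34030, RPS18C, AT1G33120 and PGY2. Those genes fall outside these rules, and their choice should be read as made with their values known. Alternatives were other scalings, filters, thresholds and tools (DESeq2 1.42.0), a replicate block, an offset for GC content and length, only the 10 libraries compared, merging of SWNTs replicates 3 and 4, and leaving out each library.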

Additional observations from a re-analysis of the deposited data

Results flagged for a closer look

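In 104 sets of 5 libraries (23 members and 3 paralog ratios in each of 4 groups), 4 had 1 library standing apart from the rest by Dixon's test, where chance gives about 1 in 20. AT1G74050 was at 240.0 CPM in SWNTs replicate 4, with the nearest library at 233 CPM. XW6 was at 37.5 CPM in non-infiltrated replicate 3, with the nearest at 46.5 CPM. AT5G20290 was at 505 CPM in PEI-SWNTs replicate 5, with the nearest at 457 CPM. AT3G09200 was at 278 CPM in SWNTs replicate 5, with the nearest at 298 CPM.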

How the results depend on the processing

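No named value changed direction under any alternative run; over all pairs of a named value and an alternative, the call was kept in 1564 and lost in 268. Member medians moved by less than the spread between replicates. Against non-infiltrated leaves that spread was 0.156, 0.146 and 0.151, beside medians of 0.18, 0.17 and 0.15, so even a large fall would have met this mark. Under the alternatives other than leaving out a library, these medians ran from 0.11 to 0.20 (water), 0.08 to 0.18 (SWNTs) and 0.04 to 0.17 (PEI-SWNTs). With library size only, members called were 10 for water against non-infiltrated leaves and 4 for PEI-SWNTs against SWNTs. At an adjusted p under 0.01 they were 5 (water), 13 (SWNTs), 9 (PEI-SWNTs against water) and 1 (PEI-SWNTs against SWNTs). Tested for a change larger than 1.2-fold, they were 1 (water), 1 (SWNTs), 8 (PEI-SWNTs), 0 (SWNTs against water), 2 (PEI-SWNTs against water) and 0 (PEI-SWNTs against SWNTs). With only the 10 samples compared they were 6 (water) and 2 (SWNTs against water), and with the GC content and length offset 8 (water), 11 (SWNTs) and 18 (joint test). Merging SWNTs replicates 3 and 4, the nearest pair of libraries, left 4 paralog ratios called between SWNTs and water. The cause was not tested. With DESeq2 the counts were 25, 23 and 24 against non-infiltrated leaves.

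Leaving out 1 library, members called ranged from 10 to 28 (water), 16 to 27 (SWNTs), 18 to 27 (PEI-SWNTs), 1 to 1 (SWNTs against water), 11 to 22 (PEI-SWNTs against water), 3 to 11 (PEI-SWNTs against SWNTs) and 24 to 37 (joint test), and paralog ratios called between SWNTs and water from 4 to 8. Same-numbered replicates did not deviate together (r from -0.36 to 0.29), so the numbers do not pair the samples. With the replicate block members called were 20, 23 and 23 against non-infiltrated leaves, 1 and 11 against water and 6 for PEI-SWNTs against SWNTs. Depth limits RPL10B, at 48 to 169 counts, and AT2G40010.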
